A study of Caenorhabditis elegans with 39 samples.

Results

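The FMRFamide-like peptide (flp) genes of Caenorhabditis elegans encode precursors of short amidated neuropeptides. The 30 genes described here are a list of sequence names among the 44968 gene features counted in every library. The annotation used for names, Ensembl 115 on WBcel235, gives an flp symbol to 29 of them, flp-1 to flp-28 and flp-32. The remaining gene, T24D8.6, was listed as flp-33 but carries no flp symbol in that annotation, which assigns flp-33 to T07D10.6, so it is called T24D8.6 here. All 30 genes are annotated as protein coding and 14 of them lie on the X chromosome, a share of 46.7% against 13.6% of the matched protein-coding features. The 3 neighbouring members flp-28 (10087314 to 10087966), flp-3 (10091946 to 10092964) and flp-2 (10094430 to 10095245), lie on the minus strand of the X chromosome in that annotation. The genome build behind the counts is not given in the sources used here.

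Messenger RNA was sequenced in 39 libraries of first-stage (L1) larvae of the wild-type strain N2, which were the generation F3 descendants of worms that had been in long-term dauer, short-term dauer or control conditions. Dauer is an arrested larval form entered under crowding and lack of food. Per the labels, descendants were kept well fed in the generations between, and F3 larvae were fed (18 h) or starved (24 h). There were 3 fed and 7 starved libraries of long-term dauer ancestry, 4 fed and 9 starved of short-term dauer ancestry, and 4 fed and 12 starved of control ancestry. All 11 fed libraries belong to batch 1, together with 3, 5 and 5 starved libraries of the same ancestries, and batch 2 holds 4, 4 and 7 starved libraries. Each sample was a whole-larva culture, all groups had the same genotype, and the series' design text calls the samples biological replicates. Fed larvae differed from starved larvae also in hours of culture and in the number of washes before freezing, so these cannot be told apart from food.

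FLP precursors are cut by proprotein convertases, trimmed by a carboxypeptidase, amidated at the C terminus, stored in dense core vesicles and released by neurons to act on G protein-coupled receptors. In worms they are known for roles in locomotion, egg laying, sleep, foraging and feeding state. Most flp genes are expressed in small, distinct sets of neurons, and a single neuron often makes several of them.

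Batch 1 libraries held 20950821 to 30313127 gene counts and batch 2 libraries 8836723 to 13740490. Levels are CPM, that is, counts scaled to library size, after TMM normalization over the 39 libraries. A pair of libraries stood apart in ways that touch the results. The library labelled starved LC4_49d, of long-term dauer descendants, had all 28 tested members within the range of the 11 fed libraries. In it 25 of them lay below every other starved library of batch 1. Shares of all genes with these patterns are not given here, so the counts are not a result about the members. The log2 profile of LC4_49d over 19406 genes correlated at 0.993 with the mean of the fed libraries and 0.916 with that of the starved ones. Starved LC3_40d and LC3_49d of the same ancestry had 0.910 and 0.914 with fed and 0.992 and 0.994 with starved. Starved LC14 of short-term dauer descendants had a TMM factor of 1.96, against 0.657 to 1.16 in the other 38 libraries. That factor lowers every CPM value of LC14. Its summed pan-neuronal markers were at 708 CPM against 1264 to 1393 CPM in the other 4 starved libraries of its group and batch. In LC14 12.6% of reads lay in no annotated feature, against at most 4.74% in the other libraries. Its 20950821 gene counts were the fewest of batch 1. Most counts and medians over the members that rest on these libraries are given with and without them. Counts over related lists, correlations between ancestries and levels relative to pan-neuronal genes are given with LC14 only. Lanes, as given in the labels, were also uneven: within batch 1 all libraries of long-term dauer descendants were from lane 4, those of short-term dauer descendants from lane 5 except starved LC6, and control libraries from both.

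The members covered a wide range of levels. Per kilobase of transcript, starved control descendants of batch 1 had flp-14 at 389 ± 42.9 CPM, flp-9 at 346 ± 58.4 and flp-1 at 329 ± 38.8 (SD, n = 5). These 3 also led over all libraries, and neighbours among them differed by less than their SDs. They were followed by flp-24 at 314 ± 34.3 and flp-11 at 228 ± 48.7 CPM per kilobase. At the low end stood flp-7 at 35.3 ± 5.94, flp-10 at 27.2 ± 4.61 and flp-32 at 27.0 ± 3.90 CPM per kilobase. The range over the 28 tested members was 12.5-fold in fed and 14.4-fold in starved control descendants. Per kilobase of coding sequence alone, flp-9 ranked above flp-24, flp-11 and flp-14 in the starved libraries, so the order at the top depends on the length used.

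**Figure D1:**
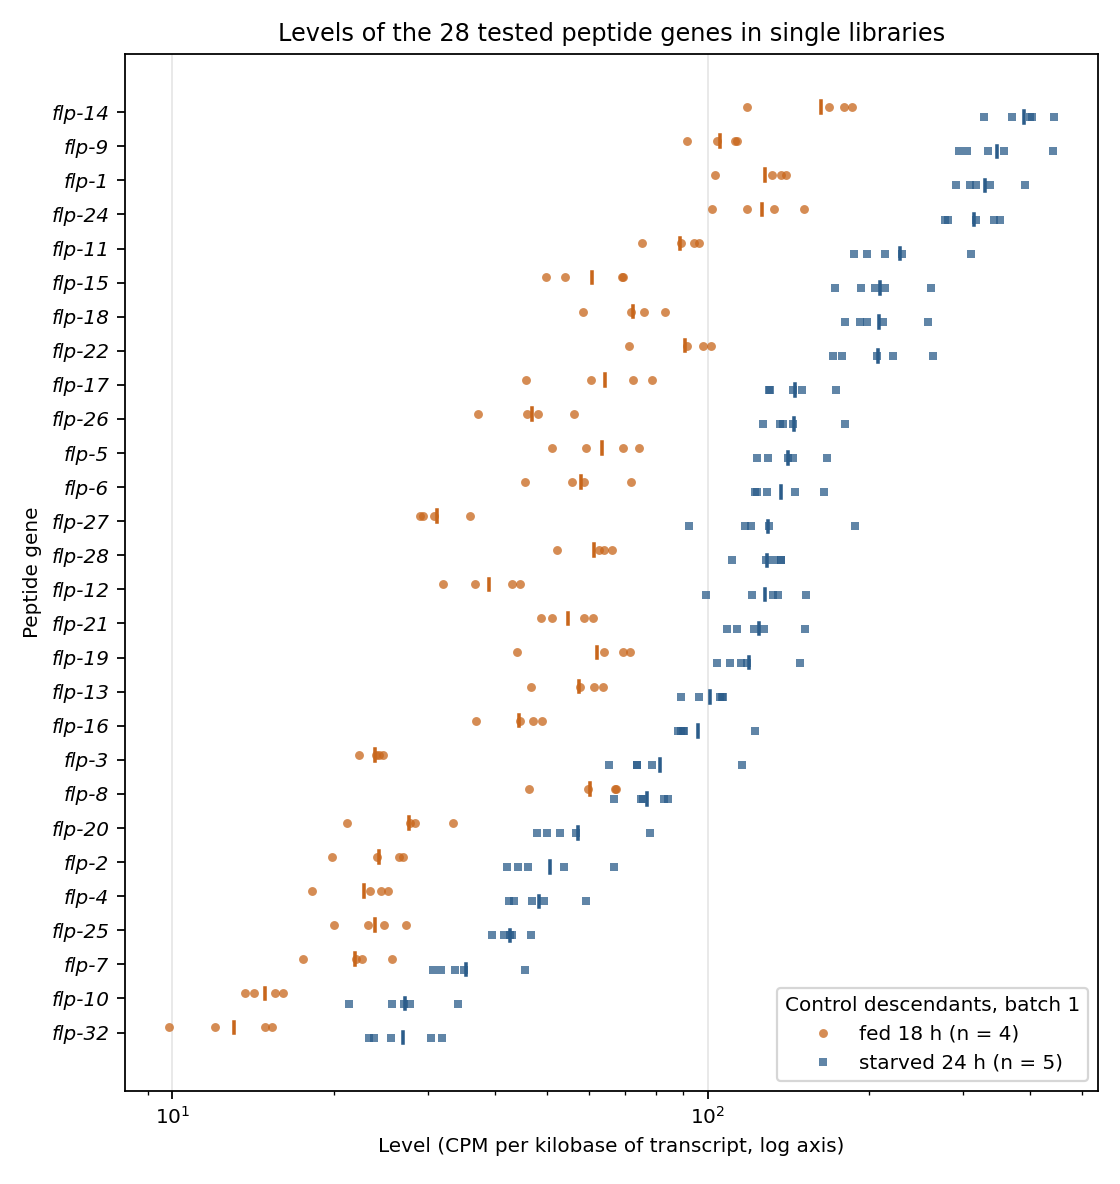
Level of each of the 28 tested peptide genes in single libraries of control descendants of batch 1, in CPM per kilobase of transcript on a log axis. Orange circles are the 4 fed libraries, blue squares the 5 starved libraries and vertical bars the group means. Fed points lie left of all starved points for every gene shown except flp-8.

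The other 2 members were near the limit of detection and did not pass the filter on low counts in the fits with all libraries. The gene flp-23 (F22B7.2) had 0 to 2 counts in the 11 fed libraries and 0 to 6 in the starved libraries, apart from 36 counts in starved LC14 of short-term dauer descendants. It had 0 counts in 18 of the 39 libraries. T24D8.6 had 0 to 7 counts in fed libraries, 2 to 21 counts in starved libraries of batch 1 and 0 to 10 in those of batch 2. It passed the filter in the feeding fit without LC4_49d. There its log2 fold change in control descendants was -1.80 (SE 0.76, adjusted p = 0.0498 by edgeR), at these low counts. It was not called there in short-term (adjusted p = 0.125 by edgeR) or long-term dauer descendants (adjusted p = 0.155 by edgeR). Neither gene enters the counts of members below, which refer to the 28 tested members.

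The flp genes were lower in fed larvae. In control descendants all 28 tested members fell in fed relative to starved larvae of batch 1, by log2 fold changes of -0.43 (flp-8) to -2.14 (flp-27) with a median of -1.26. Over all 19406 genes tested, 25.0% were lower in fed larvae at an adjusted p under 0.05 by edgeR, and the median log2 fold change was -0.15. These were 4845 lower and 5571 higher genes, which became 6169 lower and 4287 higher when libraries were scaled to total gene counts. The summed level of the 30 genes was 1003 ± 136 CPM in fed and 2485 ± 346 CPM in starved control descendants (SD, n = 4 and 5). As a share of all gene counts, with no TMM scaling, they took 0.0795% to 0.0879% in fed and 0.248% to 0.289% in starved libraries. In 27 of 28 members every fed library lay below every starved library of batch 1, a pattern held by 20.3% of all genes. Fewer cells of a type and less RNA per cell cannot be told apart in whole-larva RNA.

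The largest change was that of flp-27. flp-27 (C25H3.5) lies on chromosome II at 5681003 to 5682667 on the plus strand. It had 16.8, 19.6, 15.8 and 15.9 CPM in the 4 fed libraries of control descendants, against 65.5, 70.8, 50.2, 63.8 and 103 CPM in the 5 starved libraries of batch 1. All fed values lay below all starved values (log2 fold change -2.14, SE 0.29, adjusted p = 7.86e-06 by edgeR, 4.40-fold lower in fed). In short-term dauer descendants flp-27 had 17.4, 16.6, 22.8 and 21.6 CPM fed, against 62.7, 60.8, 57.2, 35.3 and 66.9 CPM starved in batch 1. In long-term dauer descendants it had 16.5, 21.8 and 18.4 CPM fed, against 68.4, 60.0 and 17.2 CPM in starved LC3_40d, LC3_49d and LC4_49d. The starved LC4_49d value lay among the fed values, and starved LC14, at 35.3 CPM, was the lowest of the other batch 1 starved values and still above every fed value. Starved libraries of batch 2 had 55.8 to 106 CPM with a median of 81.3 CPM.

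Next was flp-15, whose peptides are known to activate the receptor NPR-3. flp-15 (ZK525.1) lies on chromosome III at 13663400 to 13667839 on the minus strand. It had 31.1, 31.0, 22.4 and 24.3 CPM in the 4 fed libraries of control descendants, against 96.0, 91.9, 77.4, 86.7 and 117 CPM in the 5 starved libraries of batch 1. Again the groups did not overlap (log2 fold change -1.87, SE 0.26, adjusted p = 7.59e-06 by edgeR, 3.66-fold lower in fed). Short-term dauer descendants had 30.8, 33.4, 35.3 and 35.0 CPM of flp-15 fed, against 80.2, 88.1, 87.2, 55.1 and 103 CPM starved in batch 1. Long-term dauer descendants had 32.1, 35.4 and 32.4 CPM fed, against 91.5, 88.3 and 26.7 CPM in starved LC3_40d, LC3_49d and LC4_49d. Only LC4_49d among the starved libraries fell within the fed range. Starved libraries of batch 2 had 92.9 to 138 CPM with a median of 101 CPM.

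The gene flp-3 is known for expression in sensory neurons of the head and for a role in male mating. flp-3 (W07E11.2) lies on chromosome X at 10091946 to 10092964 on the minus strand. It had 21.6, 21.2, 19.5 and 21.0 CPM in the 4 fed libraries of control descendants, against 64.5, 64.3, 68.7, 57.2 and 101 CPM in the 5 starved libraries of batch 1. The fed values spanned a narrow range and lay below all starved ones (log2 fold change -1.85, SE 0.23, adjusted p = 6.49e-06 by edgeR, 3.61-fold lower in fed). Fed libraries of short-term dauer descendants had 22.6, 23.3, 26.6 and 26.5 CPM, against 62.4, 60.3, 65.2, 40.1 and 68.0 CPM starved in batch 1. Those of long-term dauer descendants had 21.0, 30.2 and 26.1 CPM fed, against 56.4, 69.4 and 26.0 CPM in starved LC3_40d, LC3_49d and LC4_49d. LC4_49d was within the fed range and the other starved libraries were above it. Starved libraries of batch 2 had 85.5 to 116 CPM with a median of 95.1 CPM.

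The gene flp-9 was both among the members that fell most and the second highest per kilobase. flp-9 (C36H8.3) lies on chromosome IV at 12754558 to 12757570 on the minus strand. It had 71.0, 71.7, 57.8 and 65.8 CPM in the 4 fed libraries of control descendants, against 211, 226, 186, 193 and 279 CPM in the 5 starved libraries of batch 1. There was no overlap (log2 fold change -1.80, SE 0.24, adjusted p = 7.22e-06 by edgeR, 3.48-fold lower in fed). In short-term dauer descendants flp-9 had 75.9, 73.1, 95.8 and 77.6 CPM fed, against 188, 198, 199, 127 and 216 CPM starved in batch 1. In long-term dauer descendants it had 70.6, 88.3 and 76.7 CPM fed, against 200.1, 209.5 and 68.8 CPM in starved LC3_40d, LC3_49d and LC4_49d. LC4_49d lay below all fed libraries of its own ancestry, while the other starved libraries lay above every fed one. Starved libraries of batch 2 had 214 to 362 CPM with a median of 257 CPM.

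The remaining members with the highest levels behaved alike. The first, flp-14 (Y37D8A.15) lies on chromosome III at 12910510 to 12914783 on the plus strand. It had 85.6, 88.7, 56.4 and 80.2 CPM in the 4 fed libraries of control descendants, against 192, 190.5, 156, 177 and 212 CPM in the 5 starved libraries of batch 1. The groups did not overlap (log2 fold change -1.34, SE 0.21, adjusted p = 2.33e-05 by edgeR, 2.53-fold lower in fed). Short-term dauer descendants had 81.8, 84.0, 99.3 and 87.4 CPM of flp-14 fed, against 165, 167, 183, 119 and 213 CPM starved in batch 1. Long-term dauer descendants had 89.3, 91.7 and 91.8 CPM fed, against 193, 187 and 77.0 CPM in starved LC3_40d, LC3_49d and LC4_49d. Here LC4_49d was lower than each fed library of long-term dauer descendants. Starved libraries of batch 2 had 166 to 248 CPM with a median of 197 CPM.

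The founding member of the family, flp-1, is known for expression in the AVK interneurons and for roles in locomotion and egg laying. flp-1 (F23B2.5) lies on chromosome IV at 9144705 to 9146128 on the plus strand. It had 95.1, 89.8, 70.3 and 93.4 CPM in the 4 fed libraries of control descendants, against 229, 216, 198, 211 and 267 CPM in the 5 starved libraries of batch 1. No fed value reached a starved value (log2 fold change -1.44, SE 0.24, adjusted p = 3.40e-05 by edgeR, 2.72-fold lower in fed). Fed libraries of short-term dauer descendants had 95.7, 79.0, 122 and 88.2 CPM, against 180.0, 194, 224, 132 and 262 CPM starved in batch 1. Those of long-term dauer descendants had 103, 102 and 98.0 CPM fed, against 229, 226 and 81.7 CPM in starved LC3_40d, LC3_49d and LC4_49d. LC4_49d aside, the gap was narrowest among short-term dauer descendants, between 122 CPM in fed LC13 and 132 CPM in starved LC14. Starved libraries of batch 2 had 206 to 343 CPM with a median of 249 CPM.

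Members with known roles in sleep, egg laying, touch and feeding fell in fed control descendants, as did all 28 tested members. Of all genes, 25.0% were lower there. The log2 fold changes that follow are by edgeR, all at adjusted p under 0.05. The sleep-promoting peptide genes were flp-11 of the RIS neuron, -1.45, and flp-13 and flp-24 of the ALA neuron, -0.89 and -1.40. Within this trio flp-24 was 56.3 ± 9.38 CPM fed and 140.0 ± 15.3 CPM starved, and flp-13 43.8 ± 5.71 CPM fed and 76.8 ± 5.93 CPM starved (SD, n = 4 and 5). The arousal peptide gene flp-2 changed by -1.14. The pair flp-10 and flp-17, whose peptides inhibit egg laying through the receptor EGL-6, changed by -0.95 and -1.27. The ligand genes of the foraging receptor NPR-1, flp-18 and flp-21, changed by -1.61 and -1.26, with flp-18 at 70.4 ± 10.2 CPM fed and 203 ± 29.1 CPM starved. For flp-20 of the touch receptor neurons the value was -1.13, and for flp-7, which regulates intestinal fat, -0.76.

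The gene flp-12, known with flp-8, flp-10 and flp-20 for the turning of mating males, changed by -1.79, and flp-6 of the AFD thermosensory neurons by -1.32. The 9 other tested members were flp-26 (-1.71), flp-22 (-1.29), flp-5 (-1.23), flp-16 (-1.19), flp-4 (-1.16), flp-28 (-1.16), flp-32 (-1.13), flp-19 (-1.02) and flp-25 (-0.92), all called lower in fed control descendants. The gene annotated as flp-33, T07D10.6, is not among the 30 and had 13.8 ± 1.1 CPM in fed and 44.9 ± 4.77 CPM in starved control descendants (log2 fold change -1.78, SE 0.26, SD, n = 4 and 5). The 3 neighbours on the X chromosome did not share one size of change, with -1.16 for flp-28 (SE 0.19), -1.85 for flp-3 (SE 0.23) and -1.14 for flp-2 (SE 0.21). These differences between neighbours were not tested.

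The least changed member was flp-8, named after its values were seen. It had 37.4, 37.5, 25.8 and 33.3 CPM in fed libraries of control descendants, against 42.2, 46.9, 37.2, 41.8 and 46.2 CPM in starved libraries of batch 1. The highest fed value lay just above the lowest starved value (log2 fold change -0.43, SE 0.14, adjusted p = 0.0119 by edgeR, 1.35-fold lower in fed). Without fed LC12 the value was -0.34 with adjusted p = 0.0545, so the gene was then not called. In short-term dauer descendants it had 36.6, 36.4, 44.0 and 43.2 CPM fed, against 39.5, 37.8, 42.5, 32.4 and 46.0 CPM starved, and the groups overlapped (log2 fold change -0.17, SE 0.14, adjusted p = 0.286 by edgeR). About 2.94% of its annotated exonic length overlaps another gene, the highest such share among the 30 genes.

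In dauer descendants the members had the same direction, with every log2 fold change negative. From here on, counts of genes that fell or rose are those called at an adjusted p under 0.05 by edgeR. In short-term dauer descendants 27 of 28 were called lower in fed larvae, beside 30.2% of all genes. The exception was flp-8, which was lower but not called. The median log2 fold change was -0.98, against an all-gene median of -0.28. Without starved LC14, 27 fell again, with a median of -1.06, beside 25.8% of all genes and an all-gene median of -0.12. All genes split into 5870 lower and 5434 higher, or 9343 lower and 3656 higher when scaled to total gene counts. Fed and starved libraries did not overlap for 14 of 28 members, beside 14.7% of all genes, and for 27 of 28 without starved LC14, beside 21.8%. In long-term dauer descendants 15 of 28 were called lower, beside 6.33% of all genes, and the median was -0.74 against -0.09 for all genes. That split was 1228 lower and 1128 higher genes, or 2546 lower and 882 higher when scaled to total gene counts, and 27 members then fell. Without the library labelled starved LC4_49d, 27 of 28 fell, beside 14.9% of all genes, and the median was -1.01, with flp-8 again not called (log2 fold change -0.30, SE 0.17, adjusted p = 0.169 by edgeR). In that setting the fed libraries lay below both starved libraries of batch 1 for 28 of 28 members, beside 35.7% of all genes. With starved LC4_49d kept, edgeR called 0 members when fed LC3_40d, fed LC4_49d, starved LC3_40d or starved LC3_49d was left out. It called 1 when fed LC3_49d was left out. Shares of all genes in those fits are not given here, so these counts are not a result about the members. With lane as a term and starved LC4_49d kept, 20 were called lower, beside 8.01% of all genes, and the median was -0.74. The 15 members called with all libraries were flp-1, flp-3, flp-6, flp-9, flp-11, flp-12, flp-14, flp-15, flp-18, flp-21, flp-24, flp-26, flp-27, flp-28 and flp-32.

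**Figure D2:**
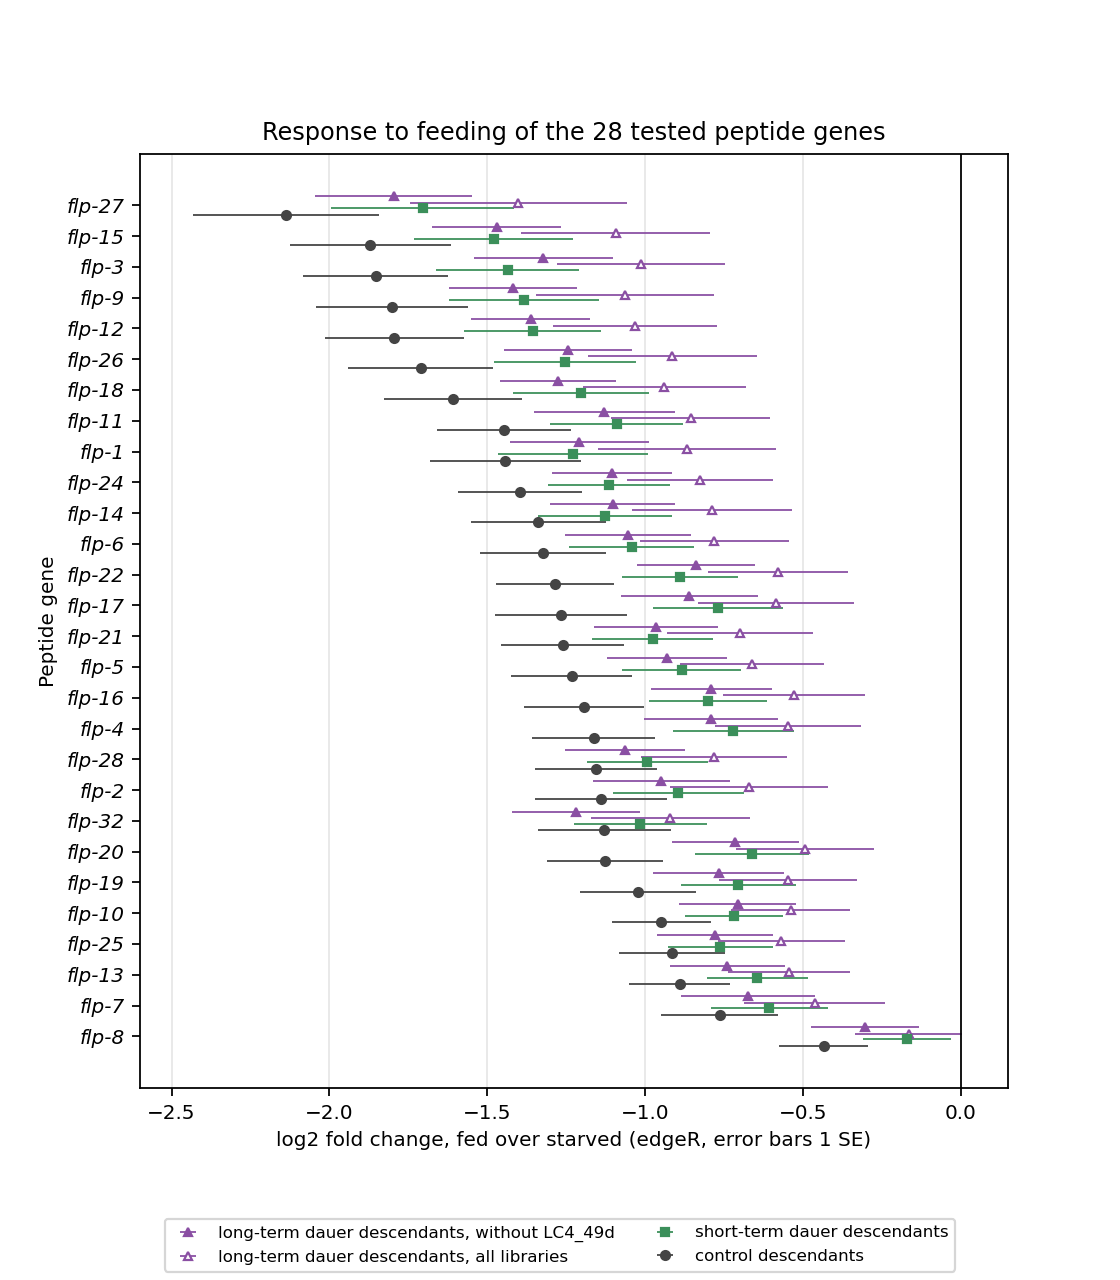
Log2 fold change, fed over starved larvae of batch 1, of the 28 tested peptide genes by ancestry, with error bars of 1 SE from edgeR. Filled triangles leave out LC4_49d and open triangles keep it. All points lie below 0, flp-27 at -2.14 and flp-8 at -0.43 in control descendants marking the ends.

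The order of the members was alike between ancestries. Over the 28 members, the log2 fold changes of long-term dauer descendants without LC4_49d and of short-term dauer descendants correlated with those of control descendants at Pearson r of 0.937 and 0.961 (Spearman rho 0.907 and 0.938). Between long-term and short-term dauer descendants r was 0.982 (rho 0.976). The points are genes measured in separate libraries that share a scaling and a fit, and these values are a description.

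Other genes of the peptide pathway were counted from lists of related genes. Of 25 tested precursors of other neuropeptides, 22 fell in fed control descendants and none rose, with a median log2 fold change of -1.40. The largest falls were those of nlp-2 (-3.58), nlp-19 (-2.33) and ntc-1 (-2.01), ntc-1 encoding the oxytocin and vasopressin relative nematocin. Levels of nlp-2 were 1.59 ± 0.372 CPM in fed and 17.9 ± 11.1 CPM in starved control descendants (SD, n = 4 and 5). All 22 receptors of FMRFamide-like peptides on the list fell, with a median of -0.93, led by frpr-18 (-1.31), egl-6 (-1.06) and npr-10 (-1.06). The receptor FRPR-18 is the partner of FLP-2 peptides and had 7.96 ± 1.95 CPM in fed and 18.6 ± 2.85 CPM in starved control descendants (SD, n = 4 and 5). EGL-6 is the partner of FLP-10 and FLP-17 and had 3.00 ± 1.48 CPM in fed and 5.97 ± 1.01 CPM in starved control descendants (SD, n = 4 and 5). The summed receptors were at 219 ± 23.6 CPM in fed and 363 ± 26.0 CPM in starved control descendants (SD, n = 4 and 5). These counts stand beside the 25.0% of all genes that were lower in fed larvae. In short-term dauer descendants 23 of the 25 precursors and 20 of the 22 receptors fell, beside 30.2% of all genes. In long-term dauer descendants without LC4_49d, 19 precursors and 16 receptors fell, beside 14.9% of all genes, and with it 13 precursors and 3 receptors, beside 6.33%. None of these precursors or receptors rose in these fits.

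Precursor processing genes were split. Over all genes, 25.0% were lower in fed control descendants and a larger number were higher. Of 10 processing genes tested, 5 fell and 2 rose in fed control descendants, or 7 and 1 when scaled to total gene counts. Those that fell were the convertase gene egl-3 (-1.5), its chaperone sbt-1 (-1.5), the carboxypeptidase gene egl-21 (-1.40) and the amidation genes pghm-1 (-1.35) and pgal-1 (-1.0), this pair named after its values were seen. Levels of egl-3 were 542 ± 64.4 CPM in fed and 1453 ± 147 CPM in starved control descendants (SD, n = 4 and 5). The genes that rose were bli-4 (0.50), a convertase also used outside neurons for cuticle proteins, and the amidation gene pamn-1 (0.49). Of 10 genes of dense core vesicle biogenesis and release, 5 fell and 1 rose, or 7 and 0 when scaled to total gene counts. The largest falls were those of ida-1 (-1.30), tbc-8 (-1.29) and unc-31 (-0.84), ida-1 encoding a dense core vesicle membrane protein and unc-31 the release factor CAPS, and hid-1 rose (0.49).

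General neuronal markers moved less. Over all genes, 25.0% were lower in fed control descendants and a larger number were higher. Of 12 pan-neuronal genes 5 fell and 2 rose in fed control descendants, with a median of -0.22. The falls were led by rgef-1 (-0.63), unc-10 (-0.63) and snt-1 (-0.39) and the rises were syd-2 (0.49) and unc-33 (0.46). Scaled to total gene counts instead, 9 fell and 1 rose, and the medians of all genes and of the pan-neuronal genes moved to -0.41 and -0.48, with the flp members at -1.52. The summed pan-neuronal level was 1287 ± 85.4 CPM in fed and 1329 ± 50.7 CPM in starved control descendants (SD, n = 4 and 5). The ratio of summed flp genes to summed pan-neuronal genes, which does not depend on the scaling, was 0.778 ± 0.0782 in fed and 1.87 ± 0.218 in starved control descendants. It was 0.873 ± 0.0712 in fed and 1.79 ± 0.168 in starved short-term dauer descendants of batch 1, LC14 included at 2.07. In long-term dauer descendants the ratio was 0.842 ± 0.0529 in the 3 fed libraries and 1.90, 1.72 and 0.779 in starved LC3_40d, LC3_49d and LC4_49d.

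Relative to the summed pan-neuronal genes, each of the 28 members was lower in fed control descendants, by log2 differences of -0.32 to -1.97 with a median of -1.14. In long-term dauer descendants without LC4_49d and in short-term dauer descendants all 28 were lower as well, with medians of -1.03 and -0.96. This measure was added after the data were seen and has no test. Of 11 markers of transmitter classes, 5 fell in fed control descendants, beside 25.0% of all genes, and tdc-1 rose (0.46). The falls were led by tbh-1 (-1.02), dat-1 (-0.70) and cho-1 (-0.65). Scaled to total gene counts, 8 fell and 0 rose.

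**Figure D3:**
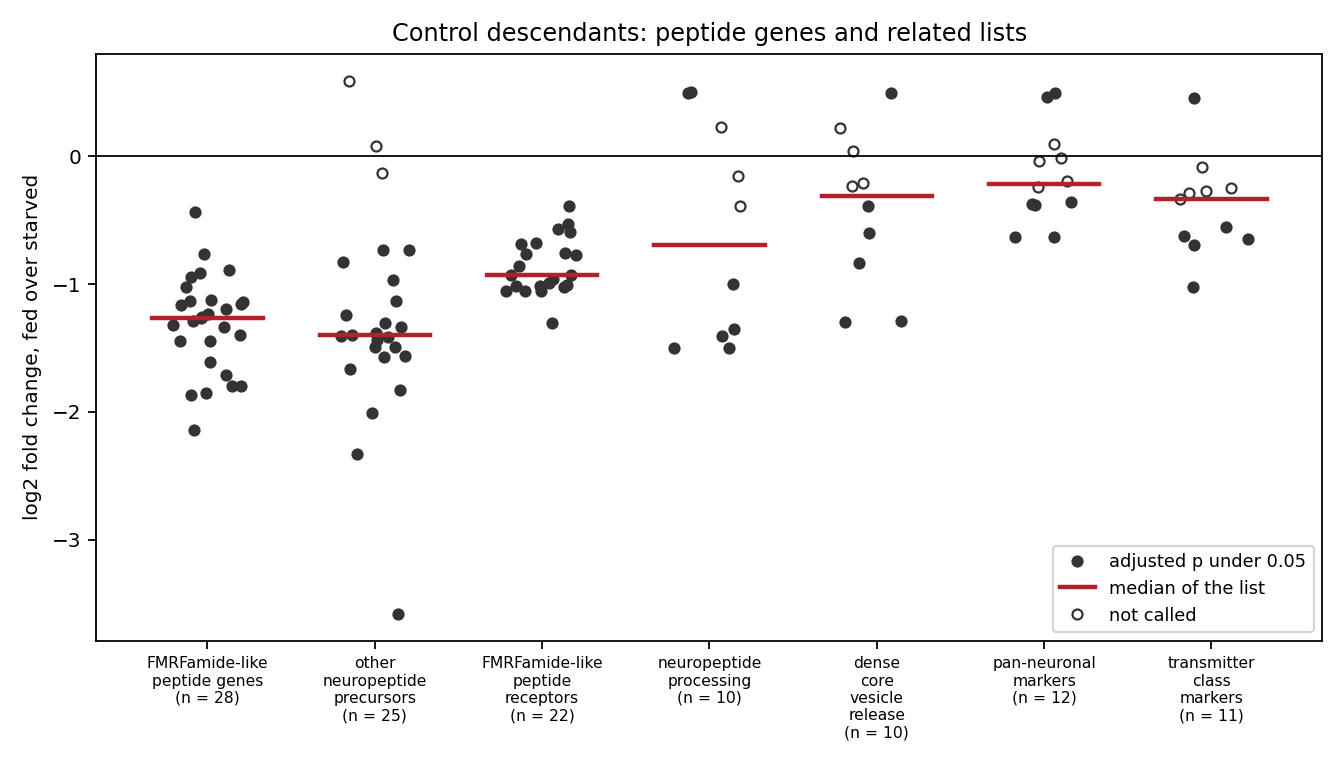
Log2 fold change, fed over starved control descendants of batch 1, for the flp members and 6 lists of related genes. Each point is a gene, filled where the adjusted p was under 0.05, and red lines are medians. The flp genes (median -1.26), other precursors (-1.40) and receptors (-0.93) lie lower than the pan-neuronal markers (-0.22).

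Markers of other tissues also differed with feeding. Over all genes, 25.0% were lower in fed control descendants and a larger number were higher. In control descendants 3 of 4 epidermal and 3 of 4 germline markers rose in fed larvae. There 3 of 7 muscle markers fell, and of 7 intestinal markers 3 rose and 2 fell. Scaled to total gene counts, 3 epidermal and 2 germline markers rose, 7 muscle markers fell, and 3 intestinal markers rose and 3 fell. Summed levels were 395 to 535 CPM in fed and 107 to 119 CPM in starved libraries for the epidermal genes. For the germline genes they were 98.2 to 120 CPM in fed and 43.7 to 51.6 CPM in starved libraries. Muscle genes summed to 10950 to 11570 CPM in fed and 14820 to 26550 CPM in starved libraries, and intestinal genes to 2782 to 4110 CPM in fed and 1885 to 3833 CPM in starved libraries. No marker of these tissues was at 0 in any library. Their part in the change of the flp genes was not tested.

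**Figure D4:**
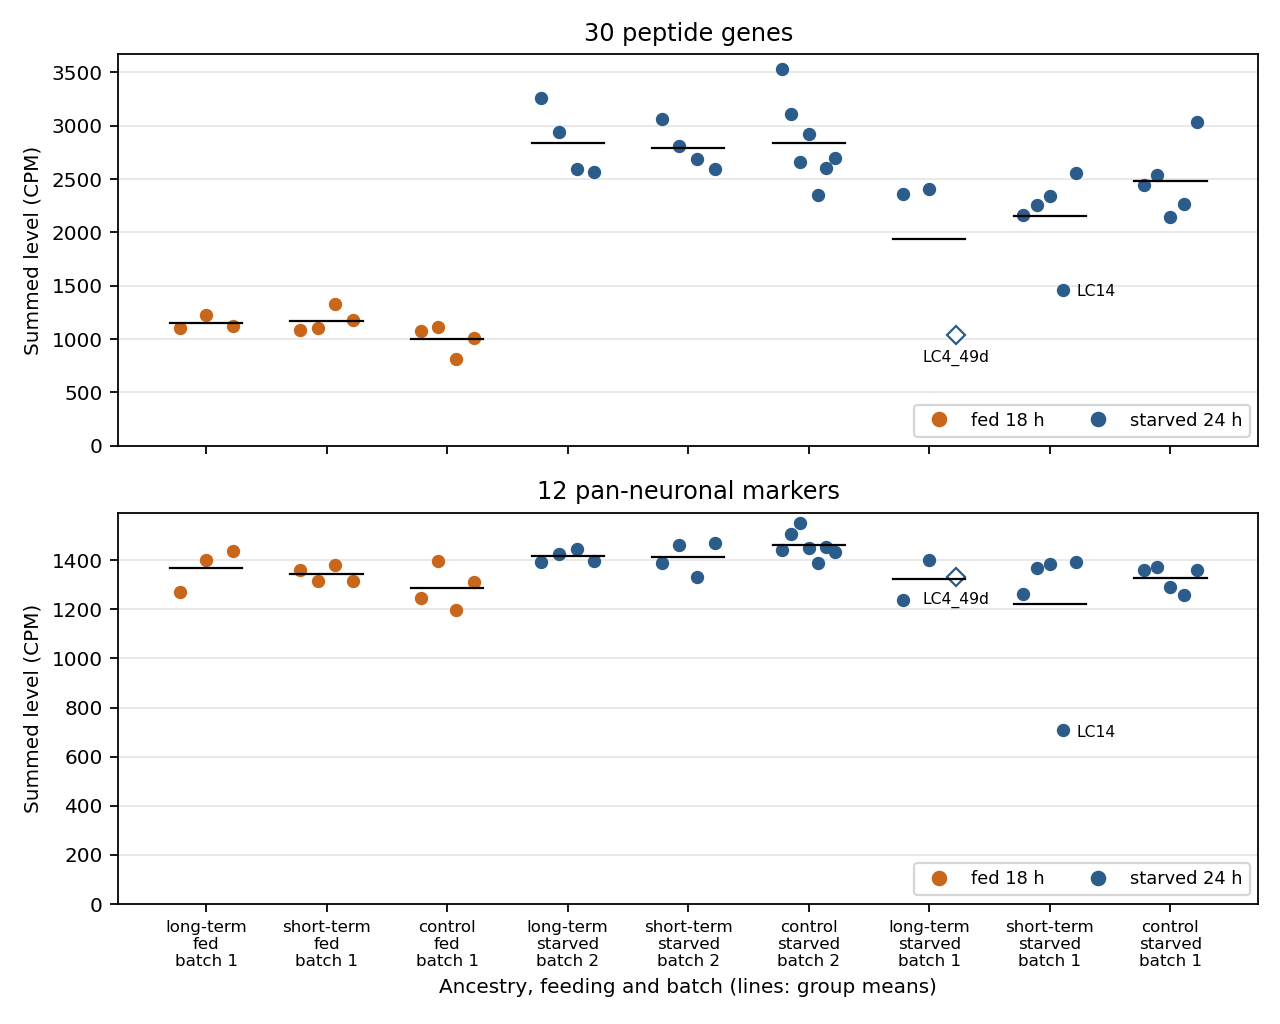
Summed level of the 30 peptide genes (top) and of 12 pan-neuronal markers (bottom) in each library, in CPM, by ancestry, feeding and batch, with lines at group means. The flp sums lie at 812 to 1330 CPM in fed libraries and above them in starved libraries, apart from the open diamond, LC4_49d, at 1038 CPM.

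The series asks whether ancestral dauer changes gene expression in larvae 3 generations later. For the size of the feeding response, 0 of 28 members were called for long-term dauer against control descendants by edgeR or DESeq2, beside 0.0% of all genes by edgeR. All 28 differences were positive, meaning a smaller fall in long-term dauer descendants, with a median of 0.57 and an all-gene median of -0.05. The largest was that of flp-3 at 0.84 (SE 0.34), and 7 members had an unadjusted p under 0.05, beside 8.96% of all genes. Without LC4_49d, 27 of 28 were positive, the median was 0.29 and no member had an unadjusted p under 0.05, beside 0.909% of all genes. Between short-term dauer and control descendants, 0 of 28 were called by either tool, beside 0.0% of all genes, and 0 had an unadjusted p under 0.05, beside 2.26% of all genes. Differences ran from 0.12 (flp-32, SE 0.29) to 0.50 (flp-17, SE 0.29), with a median of 0.33. That median was 0.24 without starved LC14, with 0 members at an unadjusted p under 0.05, beside 1.75% of all genes. Without LC4_49d 5 members were at an unadjusted p under 0.05, beside 3.69% of all genes. Both comparisons share the control libraries. Among these, starved LC6 had summed flp genes at 3040 CPM, against 2142 to 2536 CPM in the other starved controls of batch 1. Fed LC12 had 811.5 CPM, against 1007 to 1117 CPM in the other fed controls. Differences of the feeding response without either library are not given here.

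In starved larvae of both batches, fitted with a batch term, 0 of 28 members were called for long-term dauer against control descendants by edgeR or DESeq2, beside 0.0% of all genes by edgeR. Log2 fold changes ran from -0.30 (flp-10, SE 0.12, adjusted p = 0.318 by edgeR) to -0.05 (flp-8), with a median of -0.14 and an unadjusted p under 0.05 for 2 members, beside 13% of all genes. Without LC4_49d the median was -0.02 and 13 of 28 were positive. Within batch 2 alone, which lacks that library, the median was -0.01, and within batch 1 alone it was -0.09 without that library and -0.40 with it. Short-term dauer descendants against controls ranged from -0.13 (flp-4) to 0.00 (flp-8), with 0 called by either tool, beside 0.0% of all genes, and 0 at an unadjusted p under 0.05, beside 1.47%. The median was -0.04 with and without starved LC14. Within batch 1 it was -0.15, or -0.09 without LC14, and within batch 2 it was 0.00. When the long-term were set against the short-term dauer descendants, values ran from -0.26 (flp-10) to 0.06 (flp-20), again with 0 called, beside 0.0% of all genes, and 0 at an unadjusted p under 0.05, beside 10.2%. Without LC4_49d that median turned to 0.05, against -0.10 with it and -0.11 without LC14. Within batch 1 it was 0.11 without LC4_49d, -0.27 without LC14 and -0.24 with both.

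Among fed larvae, 0 of 28 members were called in any of the 3 ancestry comparisons by edgeR or DESeq2, beside 0.0% of all genes in each by edgeR. For long-term dauer against control descendants the values ran from -0.01 (flp-32) to 0.33 (flp-26, SE 0.14, adjusted p = 0.932 by edgeR), with a median of 0.17 and 6 members at an unadjusted p under 0.05, beside 4.38% of all genes. Short-term dauer descendants against controls ran from 0.01 (flp-25) to 0.34 (flp-17, SE 0.15, adjusted p = 0.881 by edgeR), with a median of 0.16 and 8 members at an unadjusted p under 0.05, beside 5.12% of all genes. Long-term against short-term dauer values ran from -0.13 (flp-20) to 0.11 (flp-1) with a median of 0.00, with 0 at an unadjusted p under 0.05, beside 2.55% of all genes. With lane as a term, 0 members were called in each comparison and the medians became 0.08 for long-term dauer and 0.31 for short-term dauer descendants against controls, with 0 and 16 members at an unadjusted p under 0.05, beside 5.39% and 13.3% of all genes. Within lane 4, where 3 long-term dauer libraries stood against 2 controls, the median was 0.08. Within lane 5, with 4 short-term dauer libraries against 2 controls, it was 0.29. The fed controls of lane 5 were LC12 and LC14. Fed LC12 had summed flp genes at 811.5 CPM, the lowest of all fed libraries, against 1007 CPM in fed LC14. Comparisons of fed dauer descendants with controls, above all in lane 5, thus rest in part on LC12. Their values without LC12 are not given here, so the positive medians cannot be assigned to ancestry. No lane holds fed libraries of both dauer ancestries, so that comparison cannot be told apart from lane except through the controls, where its median was -0.20 and 2 members were at an unadjusted p under 0.05, beside 9.63% of all genes. Scaled to total gene counts, the median of all genes moved to -0.21 and that of the members to -0.02 for long-term dauer against control descendants. No gene of the related lists was called in any ancestry comparison.

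**Figure D5:**
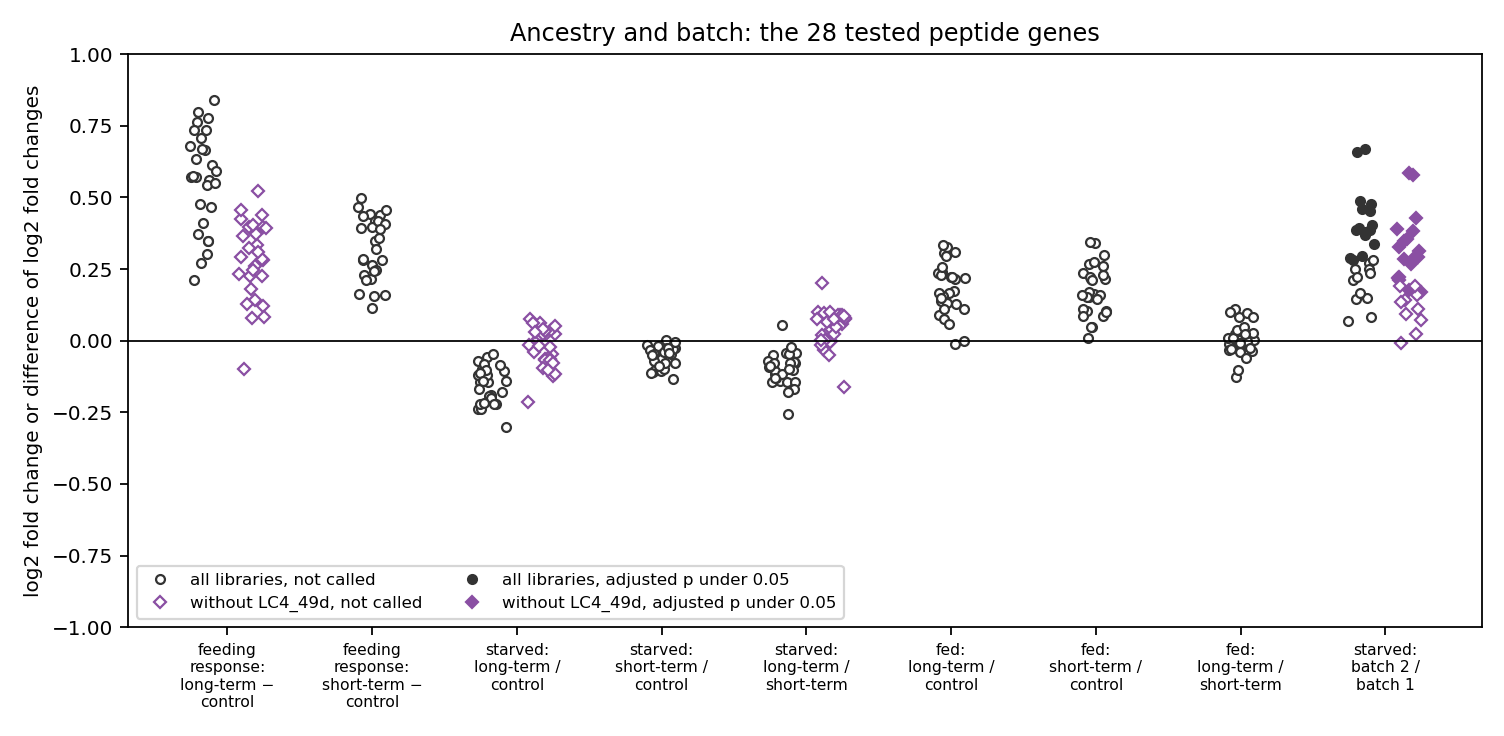
Log2 fold changes of the 28 tested peptide genes between ancestries and batches, and differences of the feeding response, by edgeR. Black circles use all libraries, purple diamonds leave out LC4_49d, and filled symbols have an adjusted p under 0.05. Filled symbols appear in the batch comparison, with flp-3 highest at 0.67.

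Between batches of starved larvae, with ancestry in the model, 16 of 28 members were higher in batch 2 and none lower, beside 11.4% of all genes higher. All genes split into 1827 higher and 2213 lower, or 2373 higher and 1438 lower when scaled to total gene counts, and 19 members were then higher. Without LC4_49d 18 of 28 were higher, beside 13.4%, and without starved LC14 15, beside 11.2%. With lane as a term, which sets batch 2 against lane 4 of batch 1, 5 were higher, beside 3.15%. The largest differences were those of flp-3 (log2 fold change 0.67, SE 0.11, adjusted p = 2.22e-04 by edgeR) and flp-22 (0.66, SE 0.12, adjusted p = 7.06e-04). For flp-22, named after its values were seen, libraries of batch 2 had 109.6 to 219.8 CPM with a median of 131 CPM, against 73.0 to 130.0 CPM in those of batch 1 without LC4_49d. These ranges overlap. Next came flp-9 (0.49), flp-10 (0.48), flp-27 (0.46) and flp-16 (0.45), and the smallest were flp-19 (0.08) and flp-11 (0.07), neither called. Of the 12 pan-neuronal markers 8 were higher and 2 lower in batch 2, with a median of 0.20, and of 24 tested other precursors 12 were higher. The batches differed in depth, and batch cannot be told apart from whatever else differed between them.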

How the data were processed

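Per the labels' protocols, polyadenylated RNA was extracted with TRIzol from whole L1 larvae and libraries were made with a non-directional kit, so reads of overlapping genes on opposite strands are not separated. The authors deposited raw read counts per gene for each of 39 libraries. Bowtie 1.1.2, HTSeq and edgeR are named in the submitters' processing notes, and the genome build and annotation are not given in the sources used here. Of 44968 features, 44443 were matched to genes in the Ensembl 115 annotation. The 5 summary rows were left out of library sizes: reads not aligned made up 14.4% to 19.0%, without a feature 1.75% to 12.6% and ambiguous 2.70% to 4.20%. No libraries of one group and batch held identical counts, over 71 pairs.

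Counts were tested with edgeR 4.0.16 (R 4.3.3, limma 3.58.1) by the quasi-likelihood test with TMM factors, filterByExpr and robust dispersions, with Benjamini-Hochberg adjustment over all genes tested and a threshold of 0.05. Feeding was fitted over the 24 libraries of batch 1, starved ancestries over 28 libraries with batch as a term, and fed ancestries over 11 libraries. Standard errors were derived from the log2 fold change and its F value. Alternatives were DESeq2 1.42.0, RLE factors, total gene counts, no low-count filter, culture name as a replicate block, lane as a term or within lanes, and leaving out libraries. The tests were tried on simulated counts with 200 changed genes.

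The members and the 10 lists of related genes (115 genes, 113 matched) were chosen with earlier results of these data known. Full values are given for the 4 members with the largest change on feeding in control descendants at 5 CPM or more and the 3 highest per kilobase, and up to 3 called genes per list and direction are named. Same-named fed and starved cultures of control descendants deviated together (4 pairs, correlation 0.20 to 0.45), and those of the other ancestries did not all do so.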

Additional observations from a re-analysis of the deposited data

Results flagged for a closer look

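Each tested member was examined on the log2 CPM scale in the 4 groups that hold 4 to 10 libraries (7 starved of long-term dauer descendants, 4 fed and 9 starved of short-term dauer descendants, 4 fed of control descendants) for a library far from the others of its group. Of 112 such sets of values 38 met this. A rate of 1 in 20 would give 5.6, but members share libraries, so the sets are not independent. The count is therefore no test of chance, and the starved sets pool both batches.

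The library labelled starved LC4_49d was the low one among the 7 starved libraries of long-term dauer descendants for 22 members. Its log2 CPM values were flp-1 (6.35), flp-2 (3.81), flp-5 (5.28), flp-6 (5.48), flp-7 (3.98), flp-9 (6.10), flp-11 (6.04), flp-12 (5.26), flp-13 (5.53), flp-14 (6.27), flp-15 (4.74), flp-16 (4.83), flp-17 (5.61), flp-18 (6.18), flp-19 (5.43), flp-21 (4.67), flp-24 (5.94), flp-25 (4.03), flp-26 (4.43), flp-27 (4.10), flp-28 (5.09) and flp-32 (2.42). All 28 tested members, these included, lay within the range of the 11 fed libraries in LC4_49d. The share of all genes that did so is not given here.

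Starved LC14, with the TMM factor of 1.96, was the low one among the 9 starved libraries of short-term dauer descendants for 15 members. Its log2 CPM values were flp-2 (3.99), flp-4 (3.99), flp-6 (5.82), flp-7 (3.88), flp-11 (6.23), flp-13 (5.42), flp-14 (6.90), flp-16 (5.03), flp-17 (5.87), flp-19 (5.49), flp-21 (4.97), flp-24 (6.36), flp-26 (5.11), flp-27 (5.14) and flp-28 (5.19). As a share of all gene counts, before TMM scaling, the summed peptide genes of LC14 were at 0.286%, the highest of the 5 starved libraries of its group and batch. The remaining value was that of flp-20 in starved library 10 of short-term dauer descendants, of batch 2, which was high at a log2 CPM of 5.39.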

How the results depend on the processing

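The counts of members called in fed against starved larvae were 28 for control and 27 for short-term dauer ancestry. These counts were the same under all alternatives and left-out libraries, except 27 for control ancestry without fed LC12 and 28 for short-term dauer ancestry scaled to total gene counts. For long-term dauer descendants the count was 15, rising to 27 when scaled to total gene counts, 22 by DESeq2, 20 with RLE factors, 20 with lane as a term and falling to 11 with no low-count filter. Leaving out single libraries gave 0 to 27. The cause was not tested. Shares of all genes called are not given for each of these settings, so the counts may not be particular to the members. Fed and starved short-term dauer libraries of batch 1 were apart for 14 members and for 27 without starved LC14, an alternative chosen after seeing the data. With culture name as a replicate block the counts were 28 (control), 27 (short-term) and 21 (long-term), with no member called between ancestries, and the block could not be fitted for the batch comparison and for long-term dauer comparisons of fed larvae. No log2 fold change that was called changed sign under any alternative run. Between batches 16 members were called higher, 16 by DESeq2, 19 scaled to total gene counts, 12 with no filter and 5 with lane as a term. Leaving out LC14 in starved larvae, leaving out libraries within batch 1 alone and the lane fits were chosen after seeing the data, and no member was called between ancestries in them. Batch 2 libraries were less deep than those of batch 1.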
